A study of Drosophila melanogaster with 3 samples.

Results

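The regions described here are peaks called for the tagged transcription factor Senseless that fall just short of the authors' reproducible list. They are called sites here, and whether Senseless binds them directly was not tested. They were chosen by rank. The 28357 peaks called on the 3 replicates together were sorted by the authors' signal value. The first of them, up to the length of the authors' optimal list, were exactly the peaks of that list, which had passed a threshold on the irreproducible discovery rate; they are called stronger peaks here. The next set of equal size was taken, 13.4% of all pooled peaks: 1663 sites at transcript starts and 2148 elsewhere. The ranks are given with the processing. All 3 samples came from 1 transgenic sens-GFP line of Drosophila melanogaster that stably carries Senseless with GFP at its C terminus. Each was a biological replicate of whole embryos of mixed sex, 4 to 14 hours old. Chromatin was sonicated and precipitated with an antibody against GFP. There was no second genotype, treatment or stage, so each comparison is between ranks of peaks within 1 group. Embryos were used whole, so a site bound in few cells cannot be told apart from a site bound weakly in many. Depth of the libraries is unknown, as only peak lists were used, and the scale of the signal value is not stated.

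Senseless belongs to the GFI family of zinc finger proteins. In the fly it keeps the level of proneural proteins high in the single cell of a proneural cluster that becomes a sensory organ precursor, and it is known both to repress genes through its own DNA site, whose core is AAATCA, and to act together with proneural proteins. It is also made in the embryonic salivary gland. The proneural proteins Achaete, Scute and Atonal bind E-boxes, and Suppressor of Hairless, Su(H), is the DNA-binding effector of Notch, the pathway by which the precursor holds its neighbours back. In binding maps made from whole animals, a list such as this one usually grades from strong sites into weak ones without a gap. The questions asked of the sites under the authors' limit are where they lie, which genes they mark and how well the single replicates back them.

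The sequences at the centre of such sites are shown first, 50 bp to each side of the summit (the position of highest signal), on the plus strand of the dm6 build, from the RefSeq sequence. The first set holds sites at known genes of the Senseless pathway and at the top of the rank range: rho, ase and the highest ranked site at a transcript start, CG18480. Capitals mark matches on either strand to the motifs searched, other than the short and frequent CANNTG, which is left unmarked in all windows. These windows hold no marked motif.
rho at chr3L:1464642-1464742: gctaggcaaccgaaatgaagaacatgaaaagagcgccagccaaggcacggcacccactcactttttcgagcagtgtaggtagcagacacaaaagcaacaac
ase at chrX:464017-464117: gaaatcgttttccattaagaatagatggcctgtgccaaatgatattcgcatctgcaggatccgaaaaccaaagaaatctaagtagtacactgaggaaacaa
CG18480 at chr2L:15629934-15630034: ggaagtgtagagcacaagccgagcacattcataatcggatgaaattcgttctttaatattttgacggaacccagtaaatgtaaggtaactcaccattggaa
The next set shows the range of base composition and of replicate support: a coding exon with high GC content where Bx and HisRS overlap, the start of Diap1, which had the best replicate ranks among sites away from stronger peaks, and a site near CG2865 that lies beside a stronger peak. Capitals mark the GA repeat GAGAG, on either strand, and, near CG2865, also a proneural E-box that directly adjoins it.
Bx at chrX:18517566-18517666: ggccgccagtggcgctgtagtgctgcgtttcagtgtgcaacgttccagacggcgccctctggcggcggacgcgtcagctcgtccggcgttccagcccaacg
Diap1 at chr3L:16050748-16050848: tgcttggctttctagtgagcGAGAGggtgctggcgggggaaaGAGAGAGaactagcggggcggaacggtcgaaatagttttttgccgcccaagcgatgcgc
CG2865 at chrX:2293838-2293938: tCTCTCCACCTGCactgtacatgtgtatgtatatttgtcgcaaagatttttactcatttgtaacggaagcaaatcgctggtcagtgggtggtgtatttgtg
The last set, chosen after the values were seen, gives for 4 motifs the highest ranked site that holds one. Capitals mark the Senseless core at the site nearest to the start of CG15725, read as TGATTT on the plus strand and present 2 times, the proneural E-box GCAGCTG at scrib, the Su(H) site TGTGAGAA at CG7991 and the palindrome TATCGATA at Uck.
CG15725 at chrX:12699256-12699356: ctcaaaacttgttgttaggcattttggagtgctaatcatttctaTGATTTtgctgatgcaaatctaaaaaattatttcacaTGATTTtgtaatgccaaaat
scrib at chr3R:26539294-26539394: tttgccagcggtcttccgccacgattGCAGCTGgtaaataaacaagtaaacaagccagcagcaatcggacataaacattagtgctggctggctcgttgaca
CG7991 at chr3L:1691137-1691237: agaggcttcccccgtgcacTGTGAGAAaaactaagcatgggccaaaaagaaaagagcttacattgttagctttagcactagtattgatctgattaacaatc
Uck at chr3R:24290077-24290177: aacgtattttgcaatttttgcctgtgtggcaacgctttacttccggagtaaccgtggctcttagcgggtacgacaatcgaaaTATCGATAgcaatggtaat

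By the rule, the sites were weaker than those above them. Their signal values ran from 85.5 to 139.8 with a median of 105.8, against a median of 219.7 for the stronger peaks. The last stronger peak, at EMC2A, had a signal of 139.812 and the first of the sites, at CG18480, 139.81. At the lower end, the last site, near msopa, had 85.4669 and the first peak left out, near smal, 85.4656. Neither limit falls at a step in the signal. The q-value deposited with each peak was at most 0.0455, and 2117 of the sites (55.5%) had one of at most 0.01. Peak width was 424 bp at 3789 of them. These values set or follow the ranks and are given as a description.

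Fewer of the sites stood at transcript starts than among the stronger peaks, and more stood between genes and in coding exons. A summit within 500 bp of an annotated transcript start was found for 1663 sites (43.6%, exact 95% interval 42.1 to 45.2), against 1855 (48.7%) of the stronger set (Fisher's exact test, two-sided, odds ratio 0.816, p = 7.96e-05 after Benjamini-Hochberg adjustment over 7 classes). Intergenic sequence held 616 sites (16.2%) against 528 (adjusted p = 0.0123, Fisher's exact test), a difference that did not pass with promoter windows of 250 or 1000 bp or with sites of a q-value of at most 0.01. Coding exons held 20 (0.525%) against 4 (adjusted p = 0.00532, Fisher's exact test). Introns held 1404 (36.8%) against 1346, and this difference of 1.52 percentage points did not pass (adjusted p = 0.244, Fisher's exact test). By the same exact test, 3' UTRs with 42 against 25 summits, 5' UTRs with 25 against 20 and other exons with 41 against 33 did not pass either, at adjusted p = 0.0854, 0.55 and 0.483. These tests count summits, which are not replicates, and so cover counting error over summits only.

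The replicates' own lists gave the same order. The same 2 rank ranges were taken in each replicate's list. In the weaker ranks of replicates 1, 2 and 3, the share at transcript starts was 41.98%, 44.3% and 40.4%, and in the stronger ranks it was 49.9%, 49.5% and 48.1%. No value of the weaker ranks reached the lowest of the stronger ones. The means were 42.2% ± 1.96 and 49.2% ± 0.967 (SD, n = 3), a difference of -6.94 percentage points. An exact sign-flip permutation test over 3 replicates gave p = 0.25, the smallest value it can give. Coding exons held 1.21%, 0.394% and 2.86% of the weaker ranks and 0.236%, 0.0787% and 0.262% of the stronger ones, so the rise was seen in every replicate but its size ranged widely. Intergenic sequence held 15.99% ± 0.924 against 13.8% ± 0.407 (SD, n = 3). Further down the pooled list, in blocks of equal size, the share at starts was 35.6% in the third block and 18.7% in the seventh, and that in coding exons 2.02% and 9.21%.

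**Figure D1:**
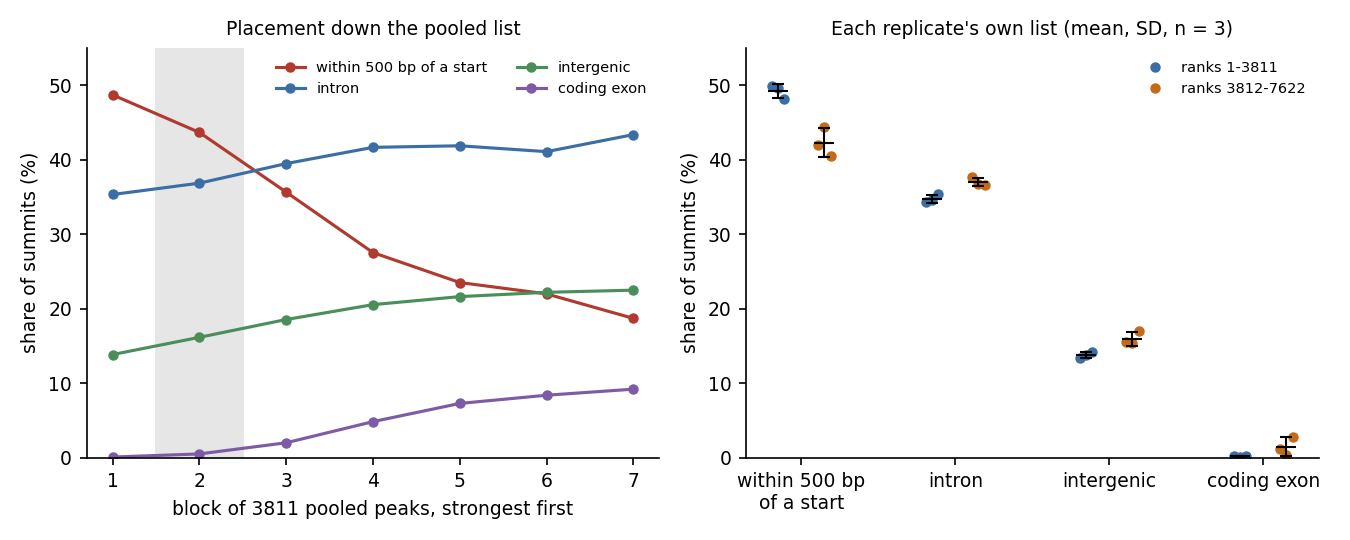
Left, share of summits (percent) by placement in 7 successive blocks of pooled peaks of equal size, with the described sites shaded. Right, the same share in the same 2 rank ranges of each replicate's own list (points), with mean and SD of 3 replicates. The share at starts falls from 48.7% to 43.6% and on to 18.7%, and the replicates' points at starts do not overlap between the rank sets.

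The summits at starts also stood in a different place. Among the 1663 sites at a start, 1109 (66.7%, exact 95% interval 64.4 to 68.95) lay upstream of the nearest start, against 1469 of 1855 (79.2%) in the stronger set. With upstream positions negative, the median was -54 bp (quartiles -151 and 33) for the sites and -101 bp (quartiles -187 and -19) for the stronger peaks. Within 100 bp of the start lay 852 sites (51.2%) against 756 (40.8%). Fewer of the weaker sites had starts on both strands within 500 bp: 399 (24.0%) against 648 (34.9%). With those summits left out, 64.9% of 1264 sites and 77.9% of 1207 stronger ones were upstream. These comparisons were chosen after the values were seen. By Fisher's exact test, two-sided and adjusted over the 6 comparisons so chosen, p was 4.2e-16 for the upstream share and 8.04e-10 for the share within 100 bp. By the same test it was 2.45e-12 for starts on both strands and 2.45e-12 for the upstream share without such summits. Summits are not replicates, so these p-values cover counting error over summits only. In the replicates' own lists the upstream share was 63.7% ± 1.48 against 77.2% ± 1.68 (SD, n = 3), lower in all 3. The share within 100 bp was 42.5%, 48.7% and 49.8% in replicates 1, 2 and 3, against 41.0%, 40.3% and 43.4%. Replicate 1 thus showed little difference in it. For either share an exact sign-flip permutation test over 3 replicates gave p = 0.25, the smallest possible. Sites farther than 500 bp from any stronger summit had an upstream share of 66.7% as well, of 1518.

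**Figure D2:**
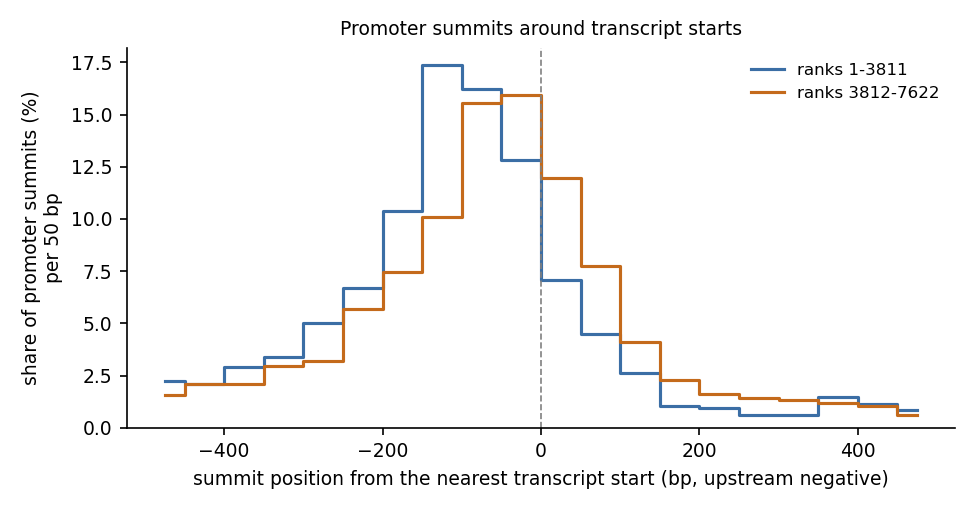
Share of summits at transcript starts (percent per 50 bp) against the position of the summit from the nearest start (bp, upstream negative), for 1855 stronger peaks and 1663 described sites. The stronger peaks are most frequent 100 to 150 bp upstream and the described sites in the 50 bp before the start.

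Every site was seen in at least 1 replicate, and in each replicate most of the sites ranked below the range that the stronger peaks take in the pool. A summit lay inside a peak of all 3 full replicate lists (30000, 30000 and 27681 peaks) for 3180 sites (83.4%, exact 95% interval 82.2 to 84.6), in 2 lists for 612, in 1 list for 19 and in none for 0. The stronger set had 3758 (98.6%) in all 3. Of the described sites, replicate 1 held 3562, replicate 2 3738 and replicate 3 3483. The 612 sites found in 2 lists were missing from replicate 3 in 311 cases, from replicate 1 in 239 and from replicate 2 in 62. Since the pooled list was called on these same replicates, the shares describe the sites and are not an independent check.

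Among the strongest peaks of each replicate the support was much smaller. When each replicate's list ended at the rank where the sites end in the pool, 822 sites (21.6%) were in all 3 lists and 82 (2.15%) in none. When it ended where the stronger peaks end, 46 sites (1.21%) were in all 3 lists and 2307 (60.5%) in none. Replicate peaks with a q-value of at most 0.01 covered 957, 2093 and 915 sites in replicates 1, 2 and 3, and 112 sites (2.94%) in all 3 of them. Replicate 2, which has the most such peaks (6319 against 4384 and 4482), is the one that most often did so. At 939 sites no replicate had a q-value of at most 0.01. The median rank of a site in a replicate was 6176, 5916 and 6087.

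**Figure D3:**
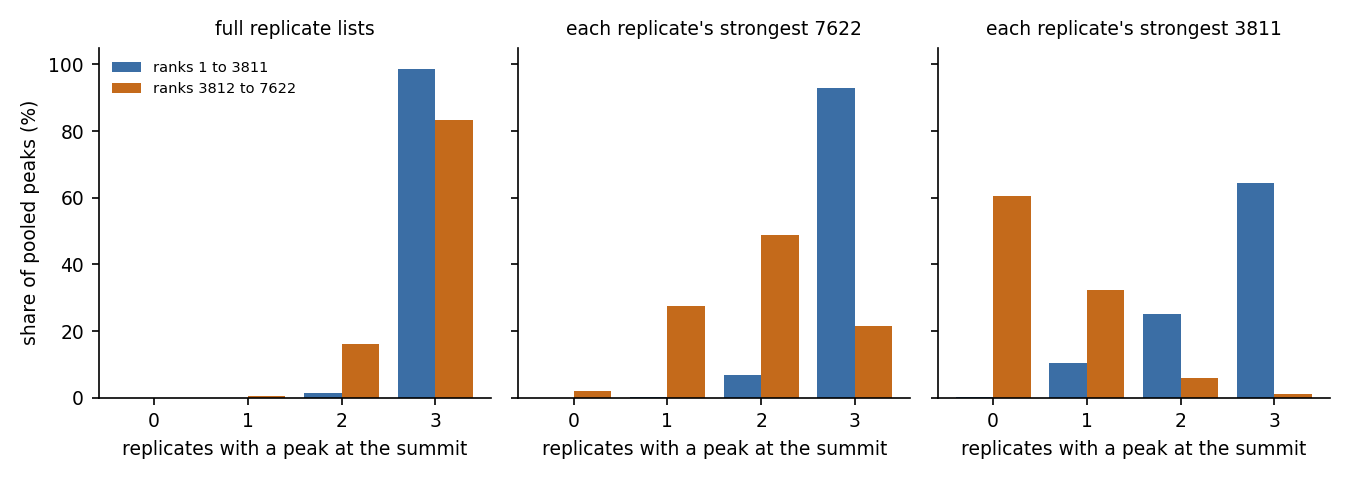
Share of pooled peaks (percent, bars) against the number of replicates with a peak at the summit, for full replicate lists (left) and for lists ended at the lower (middle) and the upper (right) rank limit of the described sites. In the full lists 83.4% of the described sites are in all 3 replicates, and with the shortest lists 60.5% are in none.

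Support varied with rank and place. It was 93.9% in all 3 full lists for the 952 strongest of the sites and 72.9% for the 952 weakest. By placement it was 80.3% at starts (exact 95% interval 78.3 to 82.2), 85.1% in introns (83.1 to 86.9), 87.7% between genes (84.8 to 90.2) and 19 of 20 in coding exons. The replicates did not rank the sites alike. Across the 3180 sites found in all 3, Spearman's rho between replicates was 0.01, -0.07 and -0.03, against 0.67 to 0.73 in the stronger set. The rule holds the pooled signal in a narrow range, which by itself leaves little room for a common order. The worst of a site's 3 ranks was a median of 2.39 times its best. In a stricter view, a replicate summit lay within 100 bp of the site's summit in all 3 replicates for 2114 sites (55.5%), against 87.5% of the stronger set.

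Some sites lay directly beside stronger peaks. Of the sites, 257 (6.74%) lay within 500 bp of a stronger summit, the nearest at 199 bp, and 143 had their summit inside a stronger peak's interval. The median distance of a site to the nearest stronger summit was 5969 bp. The 10 sites with the best mean rank in the replicates were all 199 to 212 bp from a stronger summit. At CG7694 (3R position 18584382, pooled rank 4179), the replicates' ranks were 80, 126 and 109, and at CG2865 (X position 2293888, rank 7506) they were 403, 275 and 461. Next came the ribosomal protein gene RpL13 (550, 784 and 691), a long non-coding RNA gene, Srp14, which encodes a subunit of the signal recognition particle, an isoleucine tRNA gene, CG13287, bun, a member of the TSC22 family, Doc2, a T-box gene of the dorsal ectoderm and heart, and gro. The last encodes Groucho, a co-repressor that E(spl) proteins recruit. Each site is named by the nearest start. That of Doc2 was intergenic, 4713 bp upstream, and that of bun lay in an intron. At these 10 sites the replicate peak that covers the site is a strong one, while the pooled list holds a stronger summit beside the site. All 76 sites with a rank of 1000 or better in some replicate lay within 500 bp of a stronger summit. Without the 257, support in all 3 full lists was 84.2% of 3554.

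Away from stronger summits, the site with the best replicate ranks was at Diap1, whose sequence is given above. Diap1 encodes the inhibitor of apoptosis that holds fly caspases in check. The summit, 127 bp upstream of a start (3L position 16050798, rank 4673), had ranks of 2037, 2727 and 3707 and signal values of 61.5, 75.6 and 44.4 in replicates 1, 2 and 3. The next were 616 bp upstream of a long non-coding RNA gene on 2L (ranks 3579, 3574 and 2407), in Pak3, a p21-activated kinase (3552, 4782 and 1418), and at EcR, the ecdysone receptor gene (2865, 4039 and 2932). Behind them came sites that included those at oaf, alt, nrv1, which encodes a beta subunit of the sodium pump, EMC4, an endoplasmic reticulum membrane complex subunit, and wun2, a lipid phosphate phosphatase. None of these sites was above rank 1000 in any replicate. They were picked after the values were seen.

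At own starts, the genes marked by the sites and by the stronger peaks overlapped about as much as the shares over all genes give. A summit within 500 bp of an own transcript start was found for 1865 of 13945 protein-coding genes (13.4%), against 2287 (16.4%) for the stronger peaks. In all, 292 genes had both. They were 15.7% of the first group, near the 16.4% of all genes, and 12.8% of the second, near the 13.4% of all genes. Another 1573 genes (11.3%) had one of the described sites alone. Together both rank sets marked 3860 genes (27.7%) at their starts. Counting a summit inside the gene or at most 5 kb away, the sites marked 5680 genes (40.7%), against 5912 (42.4%). The 3179 in common were 56.0% of the genes marked by the sites, above the 42.4% of all genes. The other 2501 (17.9% of all genes) had one of the described sites and no stronger peak. Neighbouring genes share summits in these counts.

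The highest ranked of the sites at starts without a stronger peak included several regulators of development. The strongest was 18 bp upstream of CG18480, far from any stronger summit (111549 bp), with signal values of 45.3, 52.4 and 31.5 in replicates 1, 2 and 3. Next was the divergent pair Gen, a DNA repair endonuclease, and Srp54k, a subunit of the signal recognition particle, 27 bp from the start of Gen, with 37.8, 52.1 and 37.6. At brk, the repressor of Dpp target genes, the summit lay 10 bp inside (X position 7307949, rank 3823) with signal values of 28.6, 73.6 and 39.6. Its replicate ranks of 8247, 2839 and 4374 were uneven, with replicate 2 far ahead. At tsh, a zinc finger gene of trunk identity, it lay 234 bp inside (2L position 21828827, rank 3829), with 34.3, 61.7 and 40.4. EcR had its summit 420 bp upstream (rank 3819), with 51.2, 59.1 and 51.97. The others were CG11964, CG11263, the pair Exo70, an exocyst subunit, and Oseg1, a ciliary transport protein, the pair Uck, a uridine kinase, and CG34290, and the pair shams, a glycosyltransferase, and CG11920. Each of these 10 sites had a peak in all 3 full replicate lists. At brk and CG11964 a stronger summit lay nearby, 773 and 917 bp from the site, just beyond the 500 bp counted. At the others the nearest was at least 2689 bp away. Signal values of replicates are on each replicate's own scale, so only their ranks compare across them.

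Genes of sensory organ formation and Notch signalling were marked at their starts at a higher share than the 13.4% of all protein-coding genes. Stronger peaks marked 16.4% of all genes there. Most other lists also exceeded 13.4%, among them insulator and promoter factors and tracheal genes (45.5% each) and cell cycle genes (34.8%). The proneural, pair-rule, chemosensory receptor and Cpr lists fell under it. All of this was described by counts alone. Of 15 genes for the fate and division of sensory organ precursors, 6 had one of the sites at an own start and 4 a stronger peak. Among them, numb, the Notch inhibitor handed to 1 daughter of the dividing precursor, had a summit 74 bp upstream of its start (rank 4455; replicate ranks 5912, 3009 and 5172) and no stronger peak within 5 kb. At spdo, which encodes a membrane protein needed for Notch signalling in that division, a summit lay 584 bp upstream, outside the 500 bp counted. It was classed as intronic (rank 4932, replicate ranks 6516, 3998 and 10478). Of 16 core Notch genes, 7 were marked at the start, against 4 by stronger peaks. The sites at Delta, the ligand, 11 bp inside (rank 5248; 3904, 6960 and 5798), and at Psn, the gamma-secretase protease, 12 bp upstream (rank 4543; 11351, 3570 and 7569), were in territories without a stronger peak. Enhancer of split and Bearded genes, the targets of Notch, had 7 of 15 marked at the start against 3. The site at Tom, a Bearded family gene, was 42 bp inside it (rank 6104), but was weaker in replicates 2 and 3 (ranks 10546 and 12729) than in replicate 1 (5349). Enhancer of split and Bearded genes lie in dense complexes and share summits, and genes differ in length and number of starts, which the counts do not adjust for.

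The proneural genes themselves had few of the sites. Of 10 proneural genes and partners, 2 had one in the gene or within 5 kb, as many as had a stronger peak, where all protein-coding genes had 40.7% and 42.4%, and ac, sc and ato had none. The site counted for ase, a proneural gene of neural precursors, was 3320 bp downstream of its start and 891 bp past its end, in an intron of another gene (X position 464067, rank 5450), with signal values of 26.3, 38.5 and 45.8 and ranks of 9609, 7668 and 3548. The site at rho, which encodes the protease that releases EGFR ligands and is a known target of Senseless, was in an intron 881 bp inside the gene (3L position 1464692, rank 4884). Its signal values were 30.2, 58.1 and 24.6 and its ranks 7477, 4157 and 8910, and it was the only one of the sites in the gene or within 5 kb. Neither gene had a stronger peak there. The gene sens had 5 stronger peaks and none of these sites, and the salivary gland regulator fkh 2 and none. CrebA, which drives secretory genes in the salivary gland, had 2 of the sites, 2417 and 1747 bp upstream (ranks 4496 and 4881), beside 3 stronger peaks.

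In most developmental lists more genes were marked by the sites than by stronger peaks, by count and without a test. Among these lists the gap was widest in 4 of neural and tissue identity. More were also marked by the sites among proteasome subunit genes (24 of 48 against 18), Cpr cuticle protein genes (17 of 70 against 13) and chemosensory receptor genes (30 of 180 against 28). Fewer were marked in the Polycomb, insulator, cell cycle and both ribosomal protein lists. These counts take a summit in the gene or within 5 kb, with 40.7% of all genes for the sites and 42.4% for stronger peaks. A site was found for 9 of 15 neuroblast and temporal factors, where stronger peaks marked 4, and 6 of the 15 had a site alone. These included ind, a homeobox gene of the neural columns (rank 3912), and the POU genes pdm2 (rank 4998) and nub (rank 5386), the last seen in 2 replicates. Of 15 genes of sensory neurons and cilia, 10 had a site and 6 a stronger peak. Among the 6 of these genes with a site and no stronger peak, the 3 highest ranked sites stood at the start of a neighbour. That of fd3F, a forkhead gene of chordotonal cilia, was at ec (rank 4088), that of nan, a channel gene of hearing organs, at nuf (rank 4346) and that of nompC, a mechanosensory channel gene, at Acsf2 (rank 4922). Hox genes and cofactors were marked by 9 of 10 against 6, with sites in introns near Abd-B (rank 4433) and abd-A (rank 4445), which specify abdominal segments. Tracheal genes were marked by 10 of 11 against 6, among them vvl 49 bp inside its start (rank 4587; 6395, 5404 and 5148), knrl in an intron (rank 3857) and trh, the master regulator of tracheal fate, 3737 bp upstream (rank 4791), where replicate 3 had no peak. Gene length was not adjusted for.

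The remaining developmental lists differed from the stronger peaks by at most 2 genes, none of them downward. Sensory organ precursor genes had 10 of 15 against 9, core Notch genes 11 of 16 against 10, and Enhancer of split and Bearded genes 14 of 15 against 12. Salivary gland genes had 9 of 13 against 7, with eyg 188 bp upstream (rank 5533) and PH4alphaSG2, a prolyl hydroxylase of the gland, 86 bp upstream (rank 6268). EGFR pathway genes had 16 of 23 in both rank sets, pair-rule and segment polarity genes 10 of 17 against 8, oenocyte genes 6 of 11 against 5, cell death genes 12 of 14 against 10, and mesoderm and muscle genes 13 of 18 against 11. In the last list, lmd, an activator of myoblast fusion genes, had a site 1955 bp upstream (rank 4817) and sns, a fusion receptor gene, one 49 bp inside (rank 5239). In the cell death list, the site counted for the caspase gene Dronc was at the start of CG42455, 4220 bp away.

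In all but 1 of the lists of housekeeping and chromatin genes, fewer genes had a site at an own start than a stronger peak, where all protein-coding genes had 13.4% and 16.4%. The same held for EGFR pathway genes, with 5 of 23 against 7, and for mesoderm and muscle genes, with 5 of 18 against 6. Of 85 cytosolic ribosomal protein genes, 23 (27.1%) had one of the sites at an own start and 52 (61.2%) a stronger peak, so that 72 (84.7%) had either. RpLP2 with a summit 6 bp upstream (rank 3858; 2496, 4493 and 11677) and RpL36A with one 38 bp upstream (rank 4002; 2256, 5540 and 4214) were added by the sites. Mitochondrial ribosomal protein genes had 13 of 73 (17.8%) against 25 (34.2%), cell cycle genes 8 of 23 against 10, Polycomb group genes 3 of 19 against 8, and insulator and promoter factors 5 of 11 against 7. Added genes were Rbf, a retinoblastoma protein (218 bp upstream), Cdk2 (70 bp upstream), the Polycomb group DNA-binding gene pho (178 bp upstream) and CTCF, the insulator protein (65 bp inside). Proteasome subunit genes were the exception, with 14 of 48 (29.2%) against 7 (14.6%). Among these Rpt3 had a site 198 bp upstream (rank 4933), nearer to the start of CG11122. At the other end, 2 of 180 chemosensory receptor genes and 1 of 70 Cpr cuticle protein genes (Cpr65Av, 409 bp upstream) had one of the sites at an own start, and none had a stronger peak there.

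**Figure D4:**
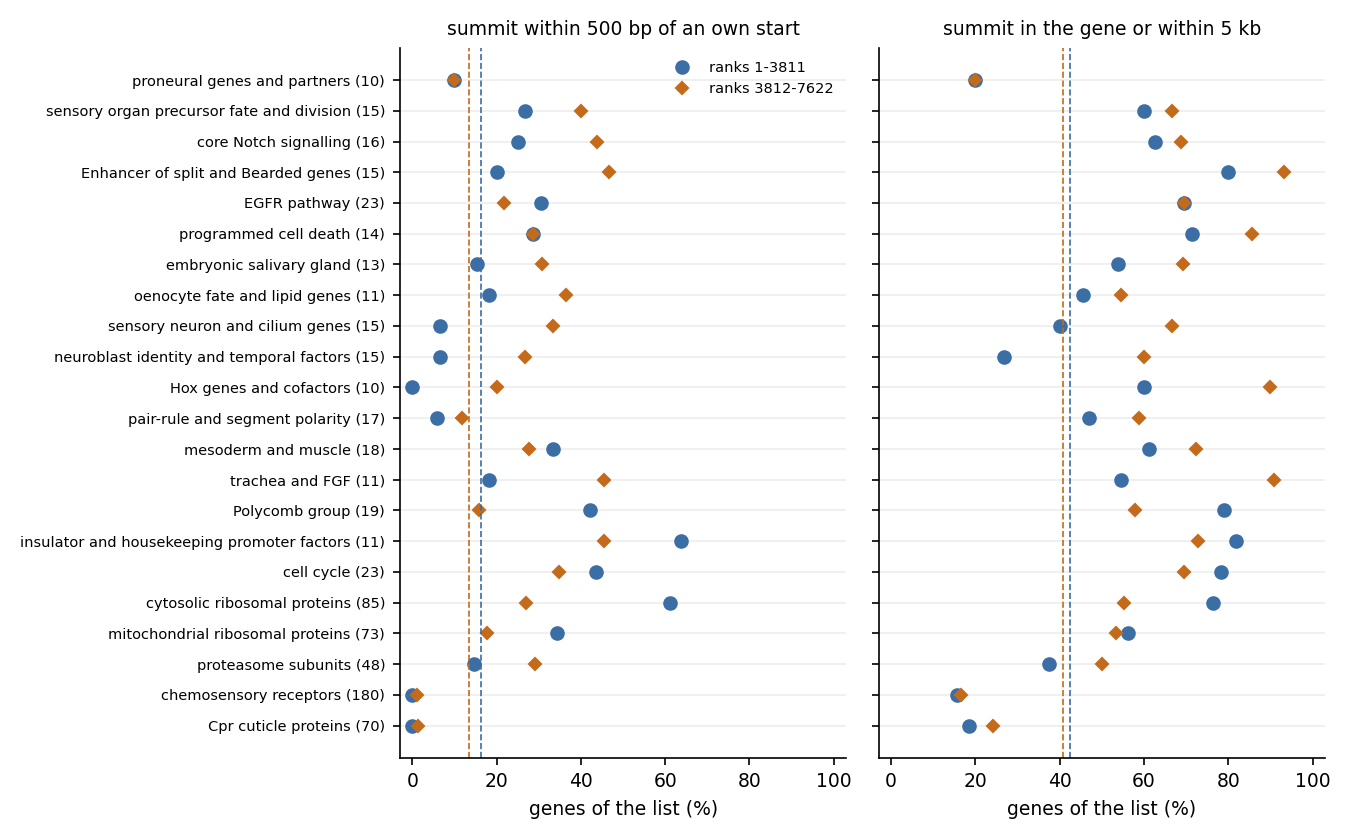
Share of genes in 22 lists (percent, list size in brackets) with a summit within 500 bp of an own start (left) and in the gene or within 5 kb (right), for stronger peaks and the described sites, with the share over all 13945 protein-coding genes as dashed lines. Ribosomal protein genes have 27.1% and 61.2% at own starts, and chemosensory receptor genes 1.11% and 0.

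The centres of the sites were less rich in A and T than those of stronger peaks. GC content averaged 37.4% within 50 bp of summits and 42.8% in flanks, windows of the same size centred 500 bp away on each side, against 34.3% and 43.6% for the stronger set. The contrast between sites and stronger peaks was larger at transcript starts (39.8% against 35.1%) than elsewhere (35.5% against 33.4%), and 67.4% of sites had a lower value than their flanks. In the replicates' own lists the weaker ranks had 37.6%, 37.3% and 39.8% and the stronger ranks 34.8%, 34.1% and 35.8%. The weaker ranks were thus higher in every replicate, by 3.39 ± 0.61 percentage points (SD, n = 3; exact sign-flip permutation p = 0.25, the smallest possible). Around 19252 transcript starts of the annotation, the same window averaged 43.7%. Down the pooled list the value rose to 41.4% in the seventh block, where the flanks had 41.8%.

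The Senseless core was about as frequent as in stronger peaks. AAATCA, searched on both strands, was within 50 bp of 521 summits (13.7%, exact 95% interval 12.6 to 14.8). It was in 10.6% of flanking windows and in 11.6% of windows around the 19252 annotated starts. The stronger set had 14.2%, a difference of -0.50 percentage points (Fisher's exact test, p = 0.551 adjusted over 8 motifs). The weaker ranks of the replicates' own lists had it at 13.3% ± 1.76 of summits and 10.9% ± 0.231 of flanks (SD, n = 3). The window near CG15725 printed above holds 2. The gain over flanks was 3.07 percentage points, against 4.26 in the stronger set, whose flanks had 9.91%. That contrast between the gains was not tested. Base composition, which also differs between summit and flank, was not tested for its part in either gain.

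**Figure D5:**
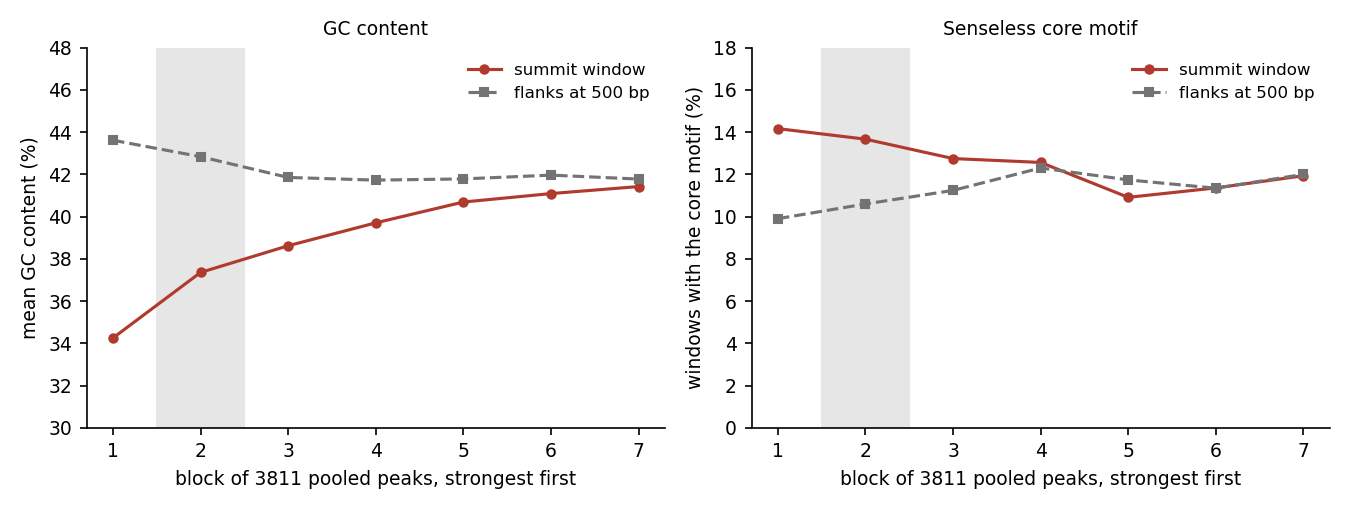
Mean GC content (left, percent) and share of windows with the Senseless core (right, percent) around summits (50 bp on each side) and in flanks at 500 bp, in 7 successive blocks of pooled peaks of equal size, with the described sites shaded. Summit and flank are 37.4% and 42.8% for GC content in the described sites, and 13.7% and 10.6% for the core.

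Sites for partner pathways were a little more frequent than in the stronger set, and stayed near or under their flanks. The proneural E-box, GCAGCTG or GCAGGTG, was at 104 summits (2.73%) against 65 (1.71%; adjusted p = 0.0241, Fisher's exact test), with 3.44% in the flanks of the sites. Su(H) sites, which are CGTGGGAA, TGTGGGAA, CGTGAGAA or TGTGAGAA, were at 45 (1.18%) against 22 (0.577%; adjusted p = 0.026, Fisher's exact test), with 1.17% in flanks. The GA repeat GAGAG was at 459 (12.04%) against 388 (10.2%; adjusted p = 0.0285, Fisher's exact test), with 13.3% in flanks. None of these 3 differences passed with windows of 25 or 100 bp on each side. Base composition differs between the rank sets as described, and its part in these differences was not tested. The palindrome TATCGATA, the site of the promoter factor DREF, was at 71 summits (1.86%) against 0.315% in flanks and 80 stronger summits. Of the 71, 66 were at transcript starts. Among sites at starts the share was 3.97%, with 3.94% for stronger peaks there and 4.48% in windows around the 19252 annotated starts. The GATA site AGATAA was at 276 (7.24%) against 305 (adjusted p = 0.363), the Zelda site CAGGTAG at 22 against 16 (adjusted p = 0.551) and any E-box, CANNTG, which takes in the proneural one, at 1429 (37.5%) against 1346 (adjusted p = 0.102), all by Fisher's exact test.

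The 20 sites in coding exons formed the smallest group named. Among the highest ranked were those where CG4822 and ND-15, a subunit gene of respiratory complex I, overlap (rank 4530), where Bx, a LIM-only gene, and HisRS, the gene for histidyl-tRNA synthetase, overlap (rank 4563), in Ubr1, a ubiquitin ligase gene (rank 5196), and in su(w[a]), a splicing regulator gene (rank 5217). GC content over the 20 averaged 56.2%, against 37.4% over all sites. At Ubr1 the replicate signal values were 29.8, 36.0 and 51.6, and at Bx 49.2, 32.0 and 36.7, and both were in all 3 full lists.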

How the data were processed

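Peaks of sens-GFP were measured by chromatin immunoprecipitation in 3 biological replicates. The authors deposited a peak list for each replicate, one for the pooled replicates and an optimal list, on dm6 and dm3. Each deposited peak has a signal value of unstated scale, a −log10 q-value and a summit offset. For the aligner and the caller the entry is: not given in the sources used here. Only for the dm3 replicate and pooled lists do the deposited notes name a control. Replicates 1 and 2 hold exactly 30000 peaks, which looks like a limit on list length. The labelled age is impossible, so the collection window comes from the source description. Depth is unknown. Exact binomial (Clopper-Pearson) intervals describe counting of peaks alone.

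All main values use dm6 and 1-based positions. The sites are pooled ranks 3812 to 7622 (3811 peaks) and the stronger peaks ranks 1 to 3811. Genes came from Ensembl release 115 on the same assembly, without annotated transposable elements, and sequence from the RefSeq FASTA. Summits within 500 bp of any transcript start were classed first, then those in UTRs, coding and other exons, introns and intergenic sequence. Shares were compared by two-sided Fisher's exact tests at a threshold of 0.05 with Benjamini-Hochberg adjustment, and over replicates by exact sign-flip tests. The placement test was tried on simulated data. The rule for names took 3 peaks next to each limit, the 10 best supported sites, the 10 strongest sites at starts without a stronger peak, up to 3 genes for each list, the genes rho, ase, sens, ato, sc, ac, fkh and CrebA, the 5 genes with most sites (with ties) and the 5 strongest sites in coding exons. Not all are printed, and 1 gene chosen by the rule is not reported here. The sites, gene lists and rule were chosen with earlier results of these data known. Alternatives covered windows, annotations, overlap rules, dm3, ranking, q-values, sites near stronger summits and each replicate left out. Python 3.11.15, NumPy 2.4.6, pandas 2.3.3, SciPy 1.17.1 and matplotlib 3.10.9 were used.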

Additional observations from a re-analysis of the deposited data

How the results depend on the processing

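The lower share at transcript starts (from -7.95 to -2.78 percentage points) and the higher share in coding exons (0.315 to 2.60) held direction and significance under all 16 alternatives run for each. Of 192 alternatives over 23 results, 147 kept direction and side of the threshold and stayed within the limits set for a move. For the rest the cause was not tested.

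The intergenic difference (2.31 points) did not pass with promoter windows of 250 bp (1.44) or 1000 bp (1.60), with q-values of at most 0.01 (1.92), in replicate 2's own list (1.68) or in the stronger 50% of the sites (2.20). The intron difference reversed with a 250 bp window (-0.24) and passed with 1000 bp (2.55) and in replicate 1's own list (3.33). The 3' UTR difference (0.446) passed with a 250 bp window (0.656), without sites near stronger summits (0.526), in replicate 1's own list (1.23) and in the weaker 50% of the sites (1.02). It reversed with q-values of at most 0.01 (-0.089) and in the stronger 50% (-0.13), and ranged from 0.426 to 0.540 with a replicate left out, passing without replicate 2.

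Among motifs, the proneural E-box difference fell short with windows of 25 bp (0.472) and 100 bp (0.394), without sites near stronger summits (0.770), at starts (1.11) and elsewhere (0.976). That of the Su(H) site did with 25 bp (0.157), 100 bp (0.525), at starts (0.736) and elsewhere (0.513). That of GAGAG did with 25 bp (0.840), 100 bp (0.735), without sites near stronger summits (1.66), at starts (2.67) and elsewhere (1.22), and without replicate 1 or 2, in a range of 1.60 to 1.94. The splits by placement were added after the data were seen. Differences for AGATAA reversed with 100 bp (0.157) and for TATCGATA at starts (0.033). The gain of AAATCA over flanks was 1.84 with 25 bp and 4.50 with 100 bp, and the GC difference of 3.10 points was 1.87 with 100 bp and 2.04 away from starts. Genes marked within 1 kb numbered 3251.

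Support in all 3 replicates was 90.3% with any overlap, 79.5% on dm3, 2.94% with replicate q-values of at most 0.01 and 55.5% with summits within 100 bp, the last added after the data were seen. With 1 replicate left out, 85.1% to 91.6% were in both others. Leaving a replicate out keeps sites found in both others; peaks were not called anew. There is 1 group, so no pairing between groups applies; rank ranges were compared within each replicate. Unknown depth and peak lists without read counts limit every value.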

Other observations

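The fourth chromosome, a small and largely heterochromatic arm, held 34 of the sites and 11 of the stronger peaks, or 25.2 and 8.16 per Mb, while the large autosome arms held 28.6 per Mb in both rank sets. The comparison was chosen after the values were seen (Fisher's exact test, odds ratio 3.11, p = 0.000955 adjusted over the 6 comparisons so chosen). In the replicates' own lists the fourth chromosome had 52, 27 and 30 summits in the weaker ranks and 19, 13 and 13 in the stronger ones, higher in all 3 (exact sign-flip permutation p = 0.25, the smallest possible). The Polycomb group gene pho and a summit near ci, the transcription factor of Hedgehog signalling, 86 bp upstream of a ci start and nearer to that of an antisense RNA gene, were among them. For X against the large autosome arms, the rank sets did not differ beyond counting error (odds ratio 0.966, Fisher's exact p = 0.588).

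Transfer RNA genes had one of the sites within 500 bp at 35 of 290 (12.1%) and a stronger peak at 15 (5.17%). Such genes are clustered, and by summits the counts were 21 against 11 (Fisher's exact test, adjusted p = 0.109). Small nucleolar RNA genes had 23 of 270 (8.52%) against 12 (4.44%), which was not tested. Both classes stayed below the shares of all protein-coding genes at own starts, 13.4% for the sites and 16.4% for stronger peaks. The protein-coding genes with most of the sites in the gene or within 5 kb were kirre, a myoblast fusion receptor gene of 394149 bp, and ush, a GATA cofactor gene, with 13 each, then E2f1, a cell cycle transcription factor gene, and hth, a Hox cofactor gene, with 12 each, and SNF4Agamma, a subunit gene of the AMP-activated kinase, and fz2, a Wnt receptor gene, with 11 each. At E2f1 and fz2 the stronger peaks numbered 2 and 3, against 18 at kirre, 11 at ush, 9 at hth and 5 at SNF4Agamma. The genes other than kirre span from 40568 bp (E2f1) to 132008 bp (hth), and length was not adjusted for.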
